A study of Homo sapiens with 14 samples.

Results

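The genes described here are 9 genes that sense amino acids or stress for the kinase complex mTORC1, or that act beside it in the response to starvation: CASTOR1, CASTOR2, FOXK1, FOXK2, SESN1, SESN2, SESN3, DEPTOR and DDIT4. They were chosen by symbol, because FOXK1 and CASTOR2 had the largest rises in RBI2 labelled 30 min against the control in an earlier look at these data, and the other 7 genes were added as relatives by function. The reads of every transcript of a symbol were summed, and the 9 genes were among 60876 genes with a transcript in the files. All 9 passed the filter on low counts, which 15426 genes passed in all. Because the comparison of RBI2 labelled 30 min with the control chose the genes, its values are given as a description without a test.

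The cells were MDA-MB-231, an established human breast cancer line, and each of the 7 groups had 2 libraries. The control group was untreated by its labels, and the results text of the study calls it DMSO-treated. The other groups received 5 µM RBI2, a small molecule found in a screen for inhibitors of ribosome biogenesis, or 5 µM CX-5461, a known inhibitor of transcription by RNA polymerase I, each with the labels 10, 30 and 120 min. The names of the deposited files carry other numbers in place of these times, so every time given here is the time on the label. No label says whether the 2 libraries of a group came from separate cultures, so the p-values measure the spread between libraries, which may be technical.

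The mTORC1 kinase sits on the lysosome and promotes the making of proteins and ribosomes when amino acids and energy are plentiful. CASTOR1 and CASTOR2 are cytosolic proteins that bind the GATOR2 complex, and CASTOR1 releases it on binding arginine. The sestrins SESN1 and SESN2 hold GATOR2 in the same way in the absence of leucine, and SESN2 and DDIT4 are well known stress-induced genes. DEPTOR binds mTOR itself and restrains it. FOXK1 and FOXK2 are forkhead transcription factors that repress autophagy genes in the nucleus of fed cells and leave it when mTORC1 is inhibited, and they have been linked to the transcription of glycolytic enzymes.

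Total estimated reads ran from 14112299 to 24849354 per library (median 16305236). Control replicate 2 stood apart: 20.6% of its reads came from the mitochondrial genome, where the 13 other libraries ranged from 8.14% to 11.3%. The 2 controls were more than 2-fold apart at 1412 genes, and the 6 treated pairs at 461 to 629 genes. Markers of this mesenchymal-like line were high, with VIM between 2780 and 3390 CPM (the reads of a gene as a share of its library after TMM scaling), and the estrogen and progesterone receptor genes were near or at 0 (ESR1 at most 0.236 CPM, PGR without a read). ERBB2 (52.5 to 77.9 CPM) and EPCAM (9.17 to 14.3 CPM) were present. GATA3 had 3.64 to 6.55 CPM and CDH1 at most 0.295 CPM. Of the markers of other cells, PTPRC (blood), PECAM1 (endothelium), KRT5 (keratinocytes) and ALB (liver) were at most 0.124, 0.406, 0.0666 and 0.145 CPM, and COL1A1 (fibroblasts) had 2.73 to 5.02 CPM. CPM is a share of the library, so a change in the RNA of a whole cell cannot be told apart from no change. A gene was called when the Benjamini-Hochberg adjusted p of edgeR's quasi-likelihood test over all 15426 genes was under 0.05 and the absolute log2 fold change was at least 1, which is a 2-fold limit. All 14 libraries entered one fit, and errors of log2 values are standard errors (SE) from it.

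The bases before the RefSeq start sites are shown for FOXK1, for FOXK2, whose level did not follow that of FOXK1, and for SESN2, which was called with CX-5461. They come from RefSeq on GRCh38.p14, 5′ to 3′ on the gene's strand, 250 bases before the start, and the capitals mark the E-box CACGTG, the site of MYC-MAX and TFEB-like factors.
FOXK1, chr7:4682045-4682294, plus strand: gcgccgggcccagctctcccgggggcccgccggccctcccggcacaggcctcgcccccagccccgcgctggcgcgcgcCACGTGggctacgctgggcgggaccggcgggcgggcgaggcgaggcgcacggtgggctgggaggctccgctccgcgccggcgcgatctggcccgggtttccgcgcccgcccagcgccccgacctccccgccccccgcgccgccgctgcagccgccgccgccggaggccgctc
FOXK2, chr17:82519482-82519731, plus strand: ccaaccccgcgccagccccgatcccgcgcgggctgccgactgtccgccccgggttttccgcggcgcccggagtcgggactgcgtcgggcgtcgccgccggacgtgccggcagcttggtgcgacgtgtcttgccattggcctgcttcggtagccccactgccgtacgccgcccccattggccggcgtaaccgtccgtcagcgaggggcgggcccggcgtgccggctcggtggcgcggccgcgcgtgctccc
SESN2, chr1:28259268-28259517, plus strand: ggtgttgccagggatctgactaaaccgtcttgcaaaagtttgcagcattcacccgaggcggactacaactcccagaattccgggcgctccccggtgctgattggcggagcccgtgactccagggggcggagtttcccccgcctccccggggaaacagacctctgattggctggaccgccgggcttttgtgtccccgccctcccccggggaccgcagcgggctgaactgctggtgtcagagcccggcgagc
Of the 9 genes, 7 had a promoter in this table, and CASTOR2 and DEPTOR had none. The E-box of FOXK1 starts at position -172 from the start site and was the only one among these promoters, and 6.34% of 35116 promoters of the same length held it. FOXK1, FOXK2 and SESN2 held 4, 3 and 2 copies of the GC box GGGCGG on either strand, which 42.6% of all promoters held. The forkhead letters TGTTTAC (2.98% of all promoters) and the CEBP-ATF letters TTGCATCA (0.772%) were in none of them. Each match is a description of the letters in this window. GC made up 85.6% of the bases for FOXK1, 77.2% for FOXK2 and 65.6% for SESN2.

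CASTOR2 was at its highest in every group that received RBI2. It lies on chromosome 7 from 74964705 to 75031528 (GRCh38, plus strand) and a single transcript of 8100 bases held 100% of its reads. The control libraries had 8.95 and 7.83 CPM. With RBI2 the libraries had 14.6 and 17.3 CPM at the label 10 min, 17.9 and 18.2 CPM at 30 min, and 25.0 and 22.6 CPM at 120 min. With CX-5461 they had 11.6 and 11.8, 9.99 and 11.6, and 9.70 and 10.8 CPM in the same order of labels. All 6 RBI2 libraries were above all 6 CX-5461 libraries, and all 12 treated libraries were above both controls. The 3 RBI2 groups did not overlap with each other. Of the CX-5461 groups, those labelled 30 and 120 min overlapped. Both CX-5461 libraries labelled 10 min were above those labelled 120 min, and above those labelled 30 min by less than the digits shown.

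FOXK1 was also highest in the groups that received RBI2. It lies on chromosome 7 from 4682295 to 4771442 (plus strand), and its transcript FOXK1-201 of 11194 bases held between 98.6% and 99.7% of its reads. The control libraries had 66.1 and 62.1 CPM. The RBI2 libraries had 98.7 and 150 CPM at 10 min, 141 and 152 CPM at 30 min, and 204 and 194 CPM at 120 min. The replicates labelled 10 min were far apart, and the higher of them reached the level of the libraries labelled 30 min. The CX-5461 libraries had 67.8 and 64.7 CPM at 10 min, 70.4 and 65.0 CPM at 30 min, and 77.3 and 94.7 CPM at 120 min. The first 2 of these groups overlapped with the control, and the libraries labelled 120 min were above it.

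**Figure D1:**
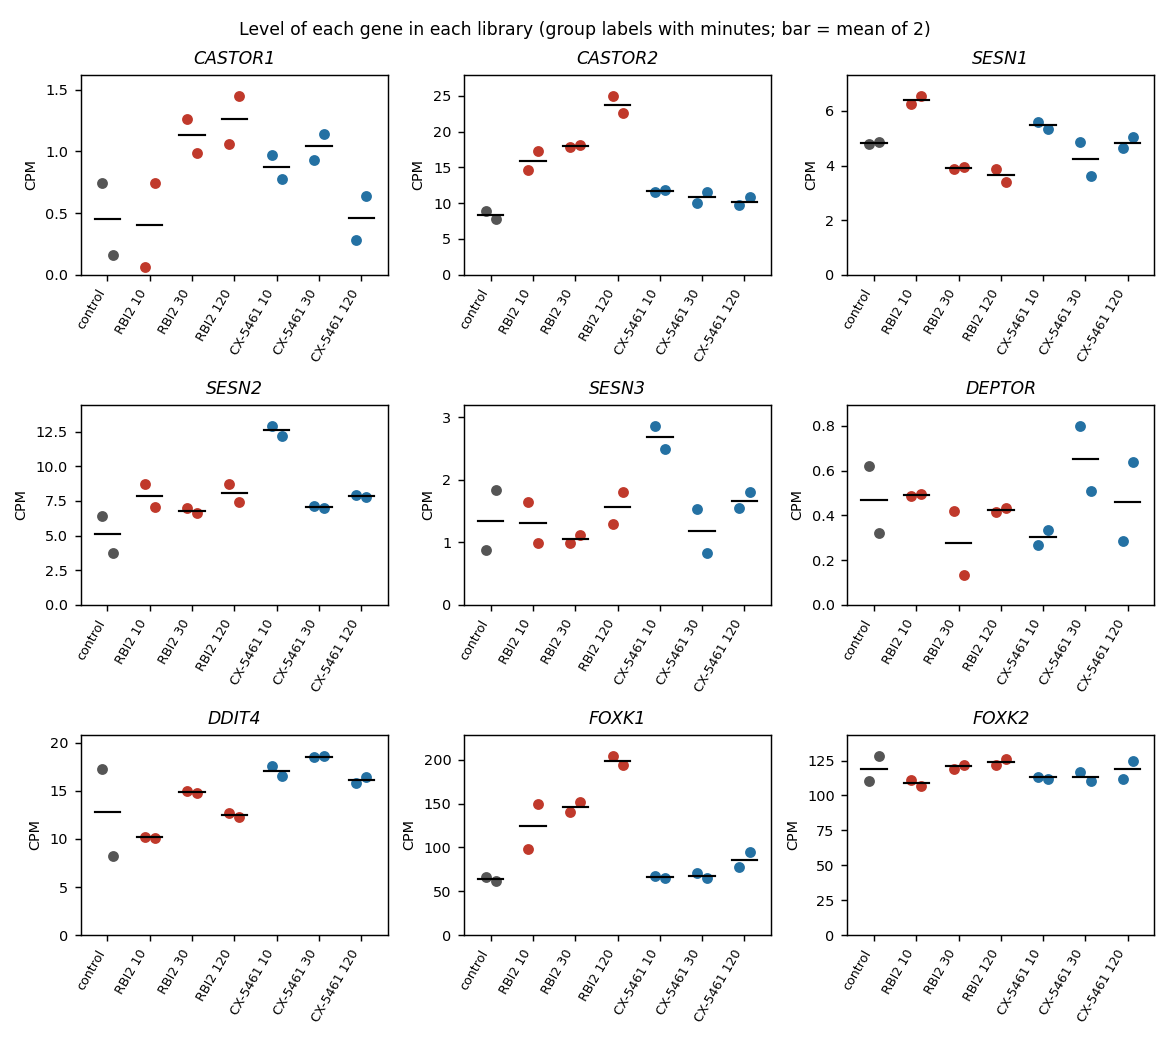
Level of each of the 9 genes in each of the 14 libraries, in CPM on axes that start at 0, with the groups named by compound and labelled minutes (grey, control; red, RBI2; blue, CX-5461) and the mean of 2 libraries as a bar. CASTOR2 and FOXK1 are highest with RBI2 (22.6 to 25.0 and 194 to 204 CPM at 120 min), SESN2 is highest with CX-5461 labelled 10 min (12.2 and 12.9 CPM), and FOXK2 stays between 107 and 128 CPM.

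Against the control, the fitted log2 fold changes of CASTOR2 with RBI2 were 0.92 ± 0.13 at 10 min, 1.10 ± 0.13 at 30 min and 1.5 ± 0.13 at 120 min. Those of FOXK1 were 0.96 ± 0.17, 1.19 ± 0.17 and 1.63 ± 0.17. These 3 comparisons share the 2 control libraries with the comparison that chose both genes, so they are values and no test is given. Both genes met the call in RBI2 labelled 30 min, where 0.0389% of the genes tested did, which is how they were found. Of the other 7 genes, none was called at 10 min, where 0.0778% of the genes tested were, or at 120 min, where 1.82% were. Without the 2-fold limit none of the 7 passed either, against 0.201% and 18% of the genes tested. With CX-5461 the log2 fold changes of CASTOR2 from the same 2 control libraries were 0.48 ± 0.13, 0.36 ± 0.13 and 0.28 ± 0.13, and those of FOXK1 were 0.05 ± 0.17, 0.08 ± 0.17 and 0.42 ± 0.17, again as values without a test.

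**Figure D2:**
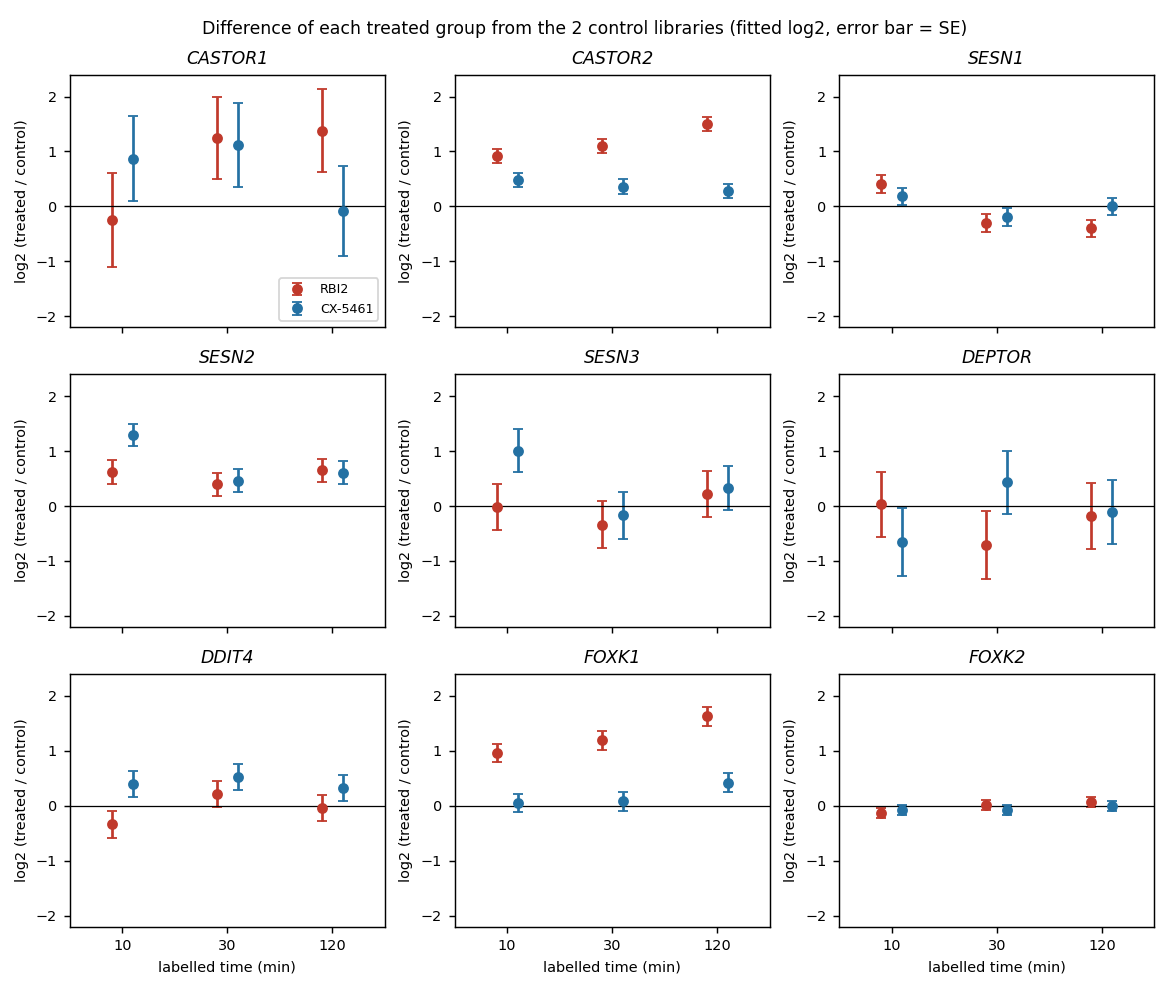
Fitted log2 difference of each treated group from the 2 control libraries, by labelled time in minutes, with RBI2 in red, CX-5461 in blue and SE bars. CASTOR2 and FOXK1 stand at 1.5 and 1.63 with RBI2 at 120 min and SESN2 at 1.29 with CX-5461 at 10 min. The bars of CASTOR1 and DEPTOR, which had few reads, are wide.

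In the comparison of RBI2 with CX-5461 at one label the difference is taken without the control libraries, which enter the fit only through the shared scaling, filter and spread and so bear on its p. At 120 min, CASTOR2 was higher with RBI2 by 1.22 ± 0.12 on the log2 scale, a 2.33-fold difference (edgeR adjusted p = 0.00312). FOXK1 was higher by 1.21 ± 0.16, a 2.32-fold difference (edgeR adjusted p = 0.0067). They were 2 of the 9 genes called, against 1.67% of all genes tested, and also 2 of 9 without the 2-fold limit, against 16.1%. Both were chosen for their rises with RBI2 at another label, and none of the genes added as relatives was called. The RBI2 libraries that chose them also enter this fit through the shared scaling, filter and spread. The count of 2 of 9 is therefore a description and no test of the set. The share of 1.67% (258 genes) depended on which libraries entered the fit, and DESeq2 called 154 genes. With an offset for GC content and length the differences were 0.99 and 0.90, under the 2-fold limit, with edgeR adjusted p of 0.00109 and 0.00276. Both genes are long and rich in GC: CASTOR2 stands at the 96.0th percentile of length and the 79.7th of GC content among the genes tested, and FOXK1 at the 98.9th and 79.3rd. The part of length and GC content in the difference was not tested. Without RBI2 labelled 120 min replicate 2, FOXK1 had 1.27 (edgeR adjusted p = 0.0539) and was not called, while CASTOR2 had 1.31 (adjusted p = 0.0221).

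At the label 10 min, FOXK1 was higher with RBI2 than with CX-5461 by 0.91 ± 0.16 (edgeR adjusted p = 0.0132), which passed the test but not the 2-fold limit. No member was called there, against 1.04% of all genes, and FOXK1 was 1 of 9 past the adjusted p alone, against 3.06%. FOXK1 was chosen for its rise with RBI2 at another label, so this count is no test of the set. The value rested on RBI2 labelled 10 min replicate 2: without it the difference was 0.56 (edgeR adjusted p = 0.0829), and without replicate 1 it was 1.16 (adjusted p = 0.00181). The test was also lost without CX-5461 labelled 10 min replicate 1 (0.94, edgeR adjusted p = 0.106) or replicate 2 (0.86, adjusted p = 0.136). With an offset for the transcript length it was 0.83 (edgeR adjusted p = 0.0658). CASTOR2 was higher by 0.44 ± 0.12 (edgeR adjusted p = 0.0937), which did not pass.

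At the label 30 min the differences were 0.74 ± 0.12 for CASTOR2 and 1.11 ± 0.17 for FOXK1. These use the RBI2 libraries that chose the 2 genes and are given as values. None of the other 7 genes was called there, against 0.013% of all genes, which was 2 genes.

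**Figure D3:**
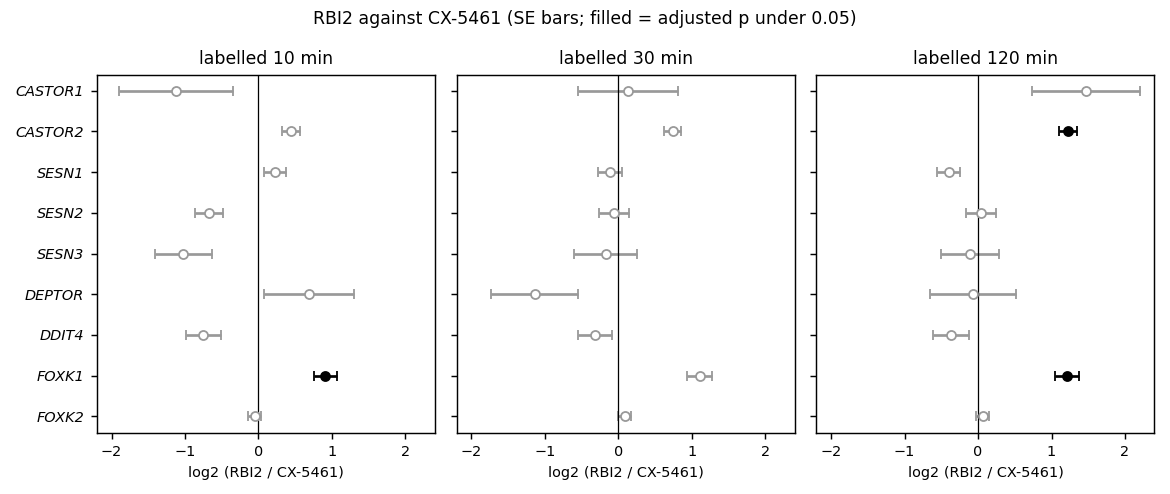
Fitted log2 difference between RBI2 and CX-5461 for each gene at each labelled time, with SE bars, and filled points where the edgeR adjusted p was under 0.05. CASTOR2 (1.22) and FOXK1 (1.21) are filled at 120 min and FOXK1 (0.91) at 10 min, and every other point is open.

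Within RBI2, the libraries labelled 10 min were lower than those labelled 120 min by 0.58 ± 0.12 on the log2 scale for CASTOR2 (edgeR adjusted p = 0.0264) and by 0.68 ± 0.16 for FOXK1 (adjusted p = 0.039). With SESN1 these were 3 of 9 past the adjusted p, against 6.44% of all genes, and none was past the 2-fold limit as well, against 0.694%. The count includes CASTOR2 and FOXK1, chosen for their rises with RBI2 at another label, and is no test of the set. With the GC and length offset the differences of CASTOR2 and FOXK1 shrank to -0.26 (edgeR adjusted p = 0.148) and -0.27 (adjusted p = 0.202). With the transcript length offset they were -0.55 (edgeR adjusted p = 0.181) and -0.67 (adjusted p = 0.163), so neither passed. Leaving out RBI2 labelled 10 min replicate 1 gave -0.48 (edgeR adjusted p = 0.211) and -0.43 (adjusted p = 0.206). Leaving out replicate 2 gave -0.73 (edgeR adjusted p = 0.0489) and -1.03 (adjusted p = 0.0108). Without 1 library of another group the edgeR adjusted p of these 2 genes was at most 0.0668. Without RBI2 labelled 120 min replicate 1 or 2 neither gene passed, with an edgeR adjusted p of 0.153 or 0.106 for CASTOR2 and 0.164 or 0.138 for FOXK1.

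**Figure D4:**
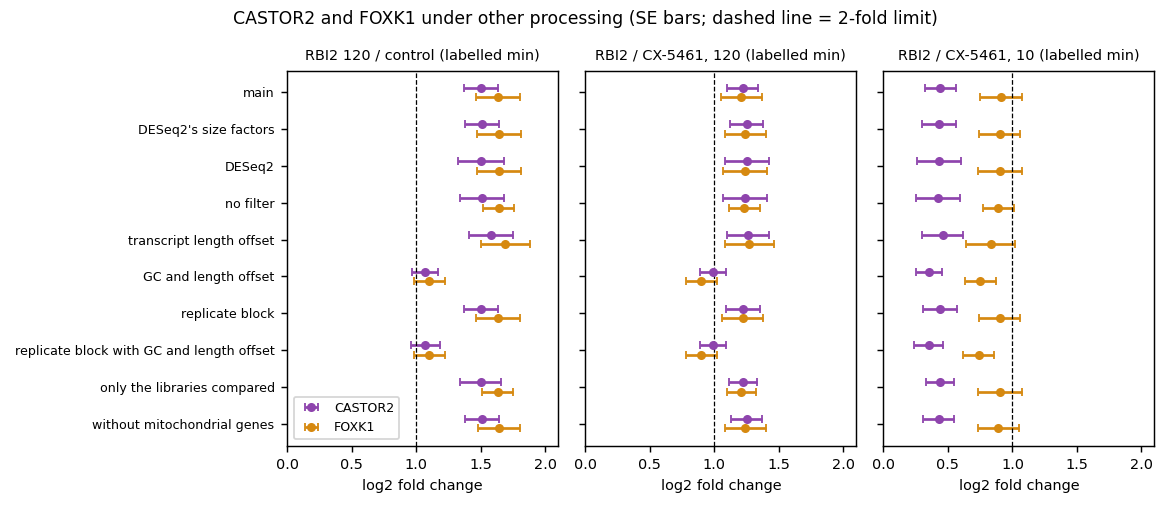
Fitted log2 fold change of CASTOR2 (purple) and FOXK1 (orange) in 3 comparisons under the reported processing and 9 alternatives, with SE bars and a dashed line at the 2-fold limit. In RBI2 labelled 120 min against the control the values fall from 1.5 and 1.63 to 1.07 and 1.10 with the GC and length offset, with or without the replicate block, and the other alternatives lie between 1.5 and 1.69.

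Reads of these genes can be shared with other loci. Of the 31-base words of the main CASTOR2 transcript, 11.6% also occur in transcripts of other genes, 4.51% in GTF2IP1. CASTOR3P, a pseudogene relative of CASTOR2, is annotated with 2 identifiers, and its transcripts as lncRNA or as a transcribed unprocessed pseudogene. ENSG00000239521 had between 0 and 9 reads, and ENSG00000291122 had between 25 and 49 reads (1.78 to 3.19 CPM). RCC1L lies on the opposite strand over the end of CASTOR2, and its log2 fold change was 0.36 ± 0.20 in RBI2 labelled 120 min against the control and 0.09 ± 0.20 against CX-5461 (edgeR adjusted p = 0.814). The kit keeps the strand, and the strand setting of Salmon is not given in the sources used here. Of the words of FOXK1-201, 6.01% occur elsewhere. The lncRNA ENSG00000287665, inside FOXK1 on the same strand, had at most 8 reads in a library.

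FOXK2, the close relative of FOXK1, had no difference past the test in any of the 15 comparisons. With the transcript length offset its difference from the control moved from 0.06 to -0.78 in RBI2 labelled 120 min (edgeR adjusted p = 0.243) and from -0.08 to -1.05 in CX-5461 labelled 10 min (adjusted p = 0.203). It lies on chromosome 17 from 82519713 to 82644662 (plus strand). The control libraries had 110 and 128 CPM, and the RBI2 libraries had 111 and 107, 119 and 122, and 122 and 126 CPM at 10, 30 and 120 min. The CX-5461 libraries had 113 and 112, 117 and 110, and 112 and 125 CPM. The groups overlapped with each neighbour in the order of their means. Between RBI2 and CX-5461 at 120 min the difference was 0.06 ± 0.09 (edgeR adjusted p = 0.679), where that of FOXK1 was 1.21. On the scale of TPM, which accounts for length, FOXK1 had 7.87 and 4.39 TPM in the control against 31.1 and 77.8 for FOXK2. With RBI2 labelled 120 min FOXK1 had 22.5 ± 2.56 TPM (SD, n = 2) against 39.5 ± 2.45 for FOXK2. FOXK1 stayed below FOXK2 per length in every library. In control replicate 2 the reads of FOXK2 were split differently between its transcripts: FOXK2-201 held 71.5% of them there and between 83.3% and 93.5% in the other libraries, and a transcript of 571 bases held 8.61% there and at most 1.98% elsewhere.

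SESN2, the stress-induced leucine sensor, was highest with CX-5461 labelled 10 min. It lies on chromosome 1 from 28259518 to 28282491 (plus strand). The control libraries had 6.40 and 3.75 CPM, the CX-5461 libraries 12.9 and 12.2 CPM at 10 min, 7.12 and 7.0 CPM at 30 min, and 7.91 and 7.76 CPM at 120 min. With RBI2 they had 8.74 and 7.04, 6.97 and 6.60, and 8.73 and 7.39 CPM. Both libraries of CX-5461 labelled 10 min were above every other library, and both controls were below every treated library. The difference from the control at 10 min was 1.29 ± 0.20 (edgeR adjusted p = 0.00546). SESN2 was the only one of the 7 genes tested that was called there, against 1.64% of all genes, and the only one past the adjusted p alone, against 4.77%. It rested on which libraries were used. Without control replicate 2 it was 0.96 (edgeR adjusted p = 0.0083), without control replicate 1 it was 1.74 (adjusted p = 0.00012), and leaving out CX-5461 labelled 10 min replicate 1 gave 1.25 (adjusted p = 0.0511). In a fit of the 4 libraries compared alone it was 1.3 (edgeR adjusted p = 0.375). Against CX-5461 labelled 30 min, the difference was 0.83 ± 0.20 (edgeR adjusted p = 0.0593), and the libraries labelled 10 min were again the higher. In a fit of those 4 libraries alone it was 0.83 (edgeR adjusted p = 0.02). Against RBI2 labelled 10 min it was 0.67 lower with RBI2 (log2 difference -0.67 ± 0.19, edgeR adjusted p = 0.111).

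None of these 7 genes was called in CX-5461 against the control at the other labels: 0 of 7 at 30 min, against 0% of all genes (0 genes by edgeR, 3536 at an unadjusted p under 0.05 and 16 called by DESeq2), and 0 of 7 at 120 min, against 0.0454%.

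SESN1, a sestrin gene under p53, is on chromosome 6 from 108984309 to 109094846 (minus strand). It had 4.79 and 4.87 CPM in the control. With RBI2 it had 6.25 and 6.55 CPM at 10 min, 3.88 and 3.96 CPM at 30 min, and 3.89 and 3.41 CPM at 120 min. The libraries labelled 10 min were above both controls and those labelled 30 and 120 min below them. With CX-5461 the libraries had 5.61 and 5.34, 4.86 and 3.63, and 4.65 and 5.04 CPM. The difference between RBI2 labelled 10 and 120 min was 0.81 ± 0.16 (edgeR adjusted p = 0.0237), opposite in direction to those of CASTOR2 and FOXK1. It was 0.63 with the GC and length offset (edgeR adjusted p = 0.0333) and 0.75 with the transcript length offset (adjusted p = 0.174). Leaving out 1 of the 4 libraries compared gave between 0.70 and 0.89 and an edgeR adjusted p between 0.0892 and 0.171. Its reads were split between SESN1-202, with 38.3% to 76.9%, and SESN1-204, with 19.4% to 61.7%. Against the control, the differences with RBI2 were 0.41 ± 0.16 at 10 min (edgeR adjusted p = 0.322) and -0.40 ± 0.16 at 120 min (adjusted p = 0.107).

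SESN3, on chromosome 11 from 95165513 to 95232541 (minus strand), had few reads, between 13 and 53 in a library. The control libraries had 0.87 and 1.84 CPM, and CX-5461 labelled 10 min had 2.86 and 2.5 CPM, above every other library. The other 10 libraries lay between 0.827 and 1.81 CPM. The difference of CX-5461 labelled 10 min from the control was 1.01 ± 0.39 (edgeR adjusted p = 0.174), which did not pass. With the GC and length offset it was 1.40 (edgeR adjusted p = 0.0232). Without control replicate 1 it was 0.54, and without control replicate 2 it was 1.60. Between the compounds at 10 min it was -1.02 ± 0.39 with RBI2 (edgeR adjusted p = 0.241).

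DDIT4, which encodes the stress-induced mTORC1 inhibitor REDD1, is on chromosome 10 from 72273919 to 72276036 (plus strand). Its control libraries were far apart, at 17.3 and 8.23 CPM, and their range held all 6 RBI2 libraries. The RBI2 libraries had 10.2 and 10.1, 15.0 and 14.8, and 12.7 and 12.3 CPM. The CX-5461 libraries had 17.6 and 16.6, 18.5 and 18.6, and 15.8 and 16.5 CPM. At each label both CX-5461 libraries were above both RBI2 libraries, with log2 differences between RBI2 and CX-5461 of -0.75 ± 0.24 at 10 min (edgeR adjusted p = 0.149), -0.32 ± 0.23 at 30 min (adjusted p = 0.875) and -0.37 ± 0.24 at 120 min (adjusted p = 0.328). None passed the test. At 10 min the value lay between -0.67 and -0.80 in every alternative run, and the test was passed with no filter (edgeR adjusted p = 0.00053), the GC and length offset (adjusted p = 0.0334, or 0.0377 with the block), only the libraries compared (adjusted p = 0.00546) and without control replicate 1 (adjusted p = 0.0003) or 2 (adjusted p = 0.00027). It was not passed in the others, with an adjusted p up to 0.539.

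CASTOR1 and DEPTOR were close to the lower limit of these libraries. CASTOR1, on chromosome 22 from 30285117 to 30289622 (minus strand), had between 1 and 27 reads in a library and between 0.0607 and 1.45 CPM. The read-through gene ENSG00000248751 shares 83.6% of the 31-base words of its main transcript on the same strand and had between 0 and 27 reads, so the split between them is uncertain. The log2 difference of RBI2 labelled 120 min from the control was 1.38 ± 0.76 (edgeR adjusted p = 0.217), with the transcript length offset it was -0.37, and it was 2.91 without control replicate 1 and 0.72 without control replicate 2. DEPTOR, on chromosome 8 from 119873717 to 120050918 (plus strand), had between 2 and 12 reads and between 0.132 and 0.799 CPM, and no difference passed the test. The SE of the log2 differences lay between 0.67 and 0.86 for CASTOR1 and between 0.55 and 0.63 for DEPTOR. Per length in the control, the order was FOXK2, DDIT4 (7.92 ± 5.61 TPM, SD, n = 2), FOXK1 (6.13 ± 2.46), SESN1 (2.44 ± 0.931), SESN2 (1.37 ± 0.88), CASTOR1 (0.992 ± 0.904), CASTOR2 (0.882 ± 0.361), DEPTOR (0.244 ± 0.185) and SESN3 (0.183 ± 0.0123). In this order, FOXK2 and DDIT4, FOXK1 and SESN1, and CASTOR2 and DEPTOR did not overlap, and the other neighbours did not differ beyond their spread.

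The genes whose level over the 14 libraries was most like that of CASTOR2, by Pearson's r of log2 CPM, were UBN1 (r = 0.969), TJAP1 (0.967) and GFOD2 (0.946). For FOXK1 they were TNRC18 (r = 0.977), GOLGA3 (0.974) and SEC14L1 (0.971). FOXK1 was at rank 8 among the genes most like CASTOR2, with r = 0.937, and CASTOR2 at rank 31 among those most like FOXK1. By Spearman's rho (0.815) these ranks were 187 and 288. For SESN2 they were LSR (r = 0.946), PLD2 (0.941) and PLEKHO2 (0.941), and for DDIT4 ENSG00000291149 (0.924), RPL3 (0.90) and SH2D5 (0.884). These r describe 14 libraries that share a scaling and fall into groups, and they carry no test. CASTOR2 and FOXK1 were chosen for their rises with RBI2 against the control, in libraries that are among these 14. Their likeness to each other therefore follows in part from that choice. Ranked by Spearman's rho, none of the first 3 genes was the same for CASTOR2, FOXK1 and SESN2, and 1 was for DDIT4. TNRC18, GOLGA3 and SEC14L1 stand at the 98.0th, 97.0th and 72.5th percentiles of length, and UBN1, TJAP1 and GFOD2 at the 90.7th, 52.1st and 67.8th. Over the 12 treated libraries alone, none of the first 3 genes was the same for FOXK1 and SESN2, and 1 was for CASTOR2 and for DDIT4.

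The pathway around these genes was read from 9 lists with 106 symbols, of which 104 were tested. The lists were chosen for their function, with earlier results of these data known. With RBI2 labelled 120 min against the control, 15 of the 104 were higher and 13 lower past the adjusted p, against 18% of all genes. The median of the 104 was 0.06 on the log2 scale against 0.01 for all genes, and none was called, against 1.82% of all genes. The largest that passed were RICTOR, the defining subunit of mTORC2, with 17.2 ± 0.563 CPM against 34.2 ± 14.4 in control libraries that were far apart (SD, n = 2; -0.99 ± 0.26, edgeR adjusted p = 0.0292), and the lipid transfer gene ATG2A of autophagy at 0.86 ± 0.13 (adjusted p = 0.00721). Of the 6 genes of the mTORC1 complex, RPTOR rose from 80.5 ± 0.315 to 110 ± 4.41 CPM (SD, n = 2; edgeR adjusted p = 0.00797) and MTOR from 66.1 ± 3.12 to 91.7 ± 1.06 CPM (adjusted p = 0.0437). LARP1, which binds the mRNAs of ribosomal proteins, rose from 572 ± 61.2 to 911 ± 31.3 CPM (SD, n = 2; edgeR adjusted p = 0.00521). LARP1 is one of 13 mTORC1 effectors, of which 3 rose and 1 fell past the adjusted p. Of the 13 other sensors and inputs tested 2 rose and 3 fell. Of the 12 genes of GATOR1, GATOR2 and KICSTOR 2 rose and 1 fell. Of the 8 FOXK partners 3 rose and 1 fell past the adjusted p. The largest of those that passed were BAP1 at 0.55 ± 0.11 (edgeR adjusted p = 0.0141), a deubiquitinase, and the corepressor SIN3B at 0.52 ± 0.11 (adjusted p = 0.0172). Of the 9 glycolytic enzymes 1 fell, which was LDHA (-0.42 ± 0.10, edgeR adjusted p = 0.0221), and of the 29 autophagy genes 3 rose and 5 fell. With DESeq2 34 list genes passed at 120 min in place of 28. In a fit of only the libraries compared 0 list genes passed, and 0 of all genes were called. In the comparisons of RBI2 labelled 10 and 30 min with the control, no list gene passed. Without control replicate 1 there were 43 and 58, and the genes called over the whole table went from 12 to 686 and from 6 to 1028 in the same fits. At 120 min, 1 list gene passed in place of 28 without RBI2 labelled 120 min replicate 1, and 4 without its replicate 2. It was 65 without control replicate 1 and 16 without control replicate 2.

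Between RBI2 and CX-5461 at 120 min, 8 list genes were higher and 13 lower with RBI2 past the adjusted p, against 16.1% of all genes, and the median was -0.03 against 0.01 for all genes. RICTOR was the only list gene called, against 1.67% of all genes, at 17.2 ± 0.563 CPM with RBI2 and 36.7 ± 9.17 with CX-5461 (SD, n = 2), a difference of -1.09 ± 0.25 (edgeR adjusted p = 0.0202). Leaving out CX-5461 labelled 120 min replicate 2 gave -0.77 (edgeR adjusted p = 0.142), and with the GC and length offset it was -0.76 (adjusted p = 0.00265). ATG2B, which acts like ATG2A, was lower by 0.92 on the log2 scale (a difference of -0.92 ± 0.23, edgeR adjusted p = 0.025). ATG2A itself was higher with RBI2, by 0.47 ± 0.13 (edgeR adjusted p = 0.0363). Of the 12 genes of GATOR1, GATOR2 and KICSTOR, 3 were higher and 2 lower. The 2 lower ones, named after their values were seen, were the GATOR2 subunits MIOS and SEH1L of the complex that CASTOR2 binds, with differences of -0.54 ± 0.12 and -0.51 ± 0.08 (edgeR adjusted p = 0.0188 and 0.00692). None of the 10 Rag and Ragulator genes passed. With the transcript length offset 6 list genes passed in place of 21, and with DESeq2 23 did. Without RBI2 labelled 120 min replicate 2, none of the 104 list genes passed in place of 21, without its replicate 1 there was 1, and without CX-5461 labelled 120 min replicate 1 or 2 there were 10 or 3. Without control replicate 1 or 2 there were 38 or 39.

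**Figure D5:**
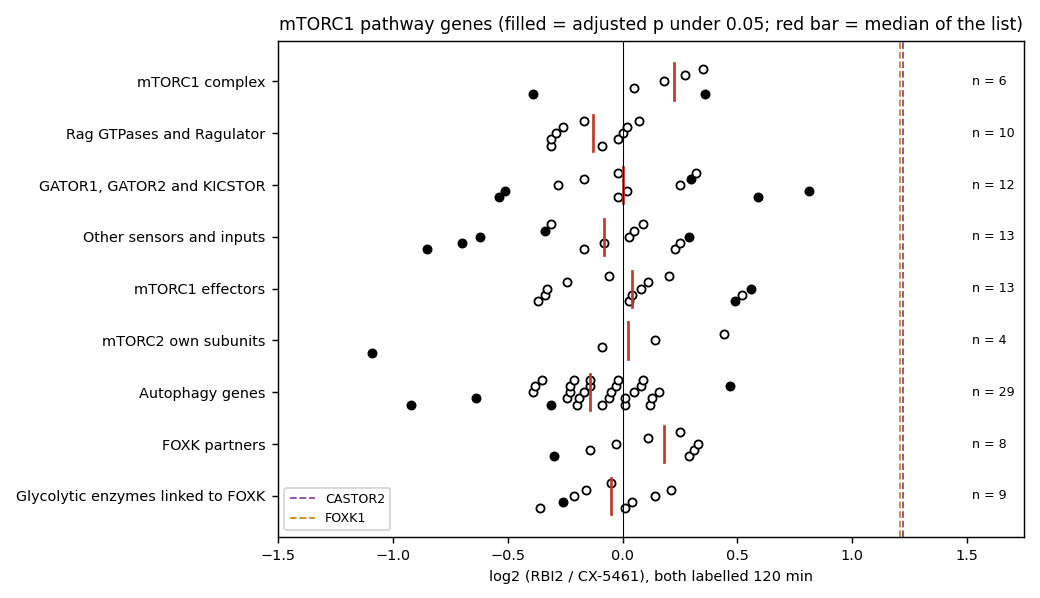
Fitted log2 difference between RBI2 and CX-5461, both labelled 120 min, for the 104 genes of 9 pathway lists, filled where the edgeR adjusted p was under 0.05, with the median of each list as a red bar and CASTOR2 and FOXK1 as dashed lines. The list genes reach down to -1.09 and all lie below the dashed lines at 1.22 and 1.21.

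At the label 10 min, 2 of the 104 list genes were lower with RBI2 than with CX-5461 past the adjusted p, against 3.06% of all genes, and both are effectors of mTORC1. In place of 2, 12 list genes passed in a fit of only the libraries compared and 1 with the transcript length offset. The count was 0 without any 1 of the 4 libraries compared, without either CX-5461 library labelled 120 min or without RBI2 labelled 30 min replicate 2. It was 1 without the other RBI2 library labelled 30 min or either labelled 120 min, and 6 or 8 without control replicate 1 or 2. TFEB, a factor for lysosome genes, had 2.42 ± 0.187 CPM against 5.74 ± 0.88 (SD, n = 2), a difference of -1.24 ± 0.26 (edgeR adjusted p = 0.0297). ULK1, the kinase that starts autophagy, had 7.04 ± 0.433 CPM against 11.6 ± 0.487, a difference of -0.72 ± 0.15 (edgeR adjusted p = 0.0247). ULK1 was also the only list gene past the adjusted p in CX-5461 labelled 10 min against the control, where 4.77% of all genes passed, at 0.68 ± 0.15 (edgeR adjusted p = 0.0263). Without control replicate 1 there were 49 list genes, without CX-5461 labelled 30 min replicate 2 there were 2, and without either CX-5461 library labelled 10 min or either RBI2 library labelled 30 min there was none. Within CX-5461, the libraries labelled 10 min were higher than those labelled 120 min by 1.36 ± 0.26 for TFEB (edgeR adjusted p = 0.019) and 0.61 ± 0.14 for ULK1 (adjusted p = 0.0474). TTI1, of the mTORC1 complex list, was lower at 10 min (-0.34 ± 0.08, edgeR adjusted p = 0.0481). These were the 3 list genes that passed, and none did without any 1 of the 4 libraries compared. There 3.12% of all genes passed the adjusted p and 0.888% were called. TFEB was not called between the compounds without any 1 of the 4 libraries compared, with an edgeR adjusted p between 0.0965 and 0.256, nor without any 1 library of CX-5461 labelled 120 min or of RBI2 labelled 30 or 120 min (adjusted p between 0.0556 and 0.063). In CX-5461, the difference of TFEB between the labels did not pass without any 1 of the 4 libraries compared, with an edgeR adjusted p between 0.0762 and 0.181. Against CX-5461 labelled 30 min, MAP1LC3B, a coat protein gene of autophagosomes, was higher at 10 min by 0.43 ± 0.08 (edgeR adjusted p = 0.022), 1 of the 104 list genes against 2.43% of all genes. This count depended on which libraries entered the fit, and with no filter it was 3. Between RBI2 labelled 10 and 120 min, 7 list genes were lower at 10 min past the adjusted p and 3 were higher, against 6.44% of all genes. The count of 10 was 0 with the transcript length offset and without RBI2 labelled 10 min replicate 1 or either RBI2 library labelled 120 min. It was 33 without either control library, and between 5 and 9 without any 1 of the other libraries.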

How the data were processed

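RNA of MDA-MB-231 cells was sequenced from a stranded mRNA library kit. The authors took out reads that aligned to the rDNA repeat and quantified the rest against GRCh38 transcripts with Salmon 1.3.0, per the labels and the methods of the study, and the deposited files hold the estimated count, the TPM and the effective length of each transcript (another value, in bases). Whether strand was used is not given in the sources used here. Of 228754 transcripts, 225662 matched a gene of GENCODE 44 on GRCh38, and the 3092 others held between 1.03% and 1.13% of the reads and were left out.

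Expected counts deposited per transcript were summed per gene and rounded. Genes were kept by filterByExpr with a minimum count of 10, scaled with TMM, and tested with the quasi-likelihood test of edgeR 4.0.16 in R 4.3.3 over all 14 libraries in 7 groups, with Benjamini-Hochberg adjustment per comparison. There were 15 comparisons: 6 with the control, 3 between the compounds and 6 between labels of one compound. TPM, summed per gene from the values deposited by the authors, compared levels between genes. The steps were tested on simulated data. The alternatives were DESeq2, its size factors, no filter, offsets for transcript length or for GC content and length, a replicate block, fewer libraries, no mitochondrial genes, an unadjusted p and no fold limit.

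The 9 genes and the pathway lists were chosen with earlier results of these data known. The named genes were the 9, and of each pathway list those called in a comparison and at most the 2 with the largest change past the adjusted p per comparison, and the 3 most alike in pattern. The motifs were searched on both strands of the 250 bases before each start site in RefSeq on GRCh38.p14. The values of 1 further list gene that the rule for named genes would give are not reported here.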

Additional observations from a re-analysis of the deposited data

Results flagged for a closer look

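In 3 results the effects of the 2 compounds differed by a test of the difference itself, edgeR's quasi-likelihood test of RBI2 against CX-5461 at one label. CASTOR2 labelled 120 min differed by 1.22 on the log2 scale (edgeR adjusted p = 0.00312), with both RBI2 libraries above both CX-5461 libraries. FOXK1 differed by 0.91 at the label 10 min (edgeR adjusted p = 0.0132) and by 1.21 at 120 min (adjusted p = 0.0067), again without overlap between the libraries. The value of FOXK1 at 10 min rests on a pair of RBI2 libraries with 98.7 and 150 CPM.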

How the results depend on the processing

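No direction of a called result turned under any alternative run. The GC and length offset lowered RBI2 against the control to 1.07 for CASTOR2 and 1.10 for FOXK1 at the label 120 min, and to 0.87 and 0.94 at the label 30 min. It lowered RBI2 against CX-5461 labelled 120 min to 0.99 and 0.90, where 0 of the 9 genes were then called in place of 2. With no filter it was 3. The transcript length offset gave CASTOR2 1.28 in RBI2 labelled 30 min against the control. FOXK1 between the compounds at 30 min, a value from libraries that chose it and so no test, was 1.09 with DESeq2, 1.10 with no filter, 1.10 with only the libraries compared and 1.11 with an unadjusted p, and the count of the 9 genes there was 1 in place of 0. At 10 min FOXK1 passed with no fold limit (0.91). SESN2 in CX-5461 labelled 10 min was 1.3 and not called in the fit of only the libraries compared.

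Counts against the control and at 30 min include CASTOR2 and FOXK1, chosen on those libraries, and are no test of them. The other counts between the compounds or between RBI2 labels also include these 2 genes, chosen for their rises with RBI2. They are no test of the set. The count of the 9 genes called in RBI2 labelled 30 min against the control fell from 2 to 0 with the transcript length offset, the GC and length offset and only the libraries compared, and at 120 min to 0 with only the libraries compared. In CX-5461 labelled 10 min it went from 1 to 2 with the GC and length offset or an unadjusted p, and to 0 with only the libraries compared. In RBI2 labelled 10 min it was 1 with no fold limit. Between the compounds at 10 min it was 1 with the GC and length offset, an unadjusted p or no fold limit. Between RBI2 labelled 10 and 120 min it was 1 with no filter and 3 with no fold limit, and between CX-5461 labelled 10 and 30 min 1 with an unadjusted p.

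Deviations of same-numbered libraries correlated weakly, between -0.18 and 0.18 over 21 pairs of groups, and over 0.1 in 3 of them. These values cannot tell whether same-numbered libraries shared a culture or a batch. With the replicate block, 0 of the 9 genes in place of 2 were called in RBI2 labelled 30 min against the control. With the block and the GC and length offset the values were 1.07 for CASTOR2 and 1.10 for FOXK1 in RBI2 labelled 120 min against the control, 0.87 and 0.94 in RBI2 labelled 30 min, and 0.99 and 0.90 against CX-5461, with 0 genes called at 30 min and between the compounds, and 2 in CX-5461 labelled 10 min.

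Leaving out 1 library at a time moved CASTOR2 with RBI2 against the control from 0.80 to 1.05, from 0.99 to 1.2 and from 1.39 to 1.61 (10, 30 and 120 min), and FOXK1 from 0.64 to 1.24, from 1.13 to 1.24 and from 1.57 to 1.68. Against CX-5461, CASTOR2 lay between 0.30 and 0.55, 0.61 and 0.85, and 1.2 and 1.34, and FOXK1 between 0.56 and 1.16, 1.06 and 1.17, and 1.15 and 1.41. SESN2 in CX-5461 labelled 10 min lay between 0.96 and 1.74. The count of the 9 genes called against the control lay between 0 and 3, 0 and 2, and 2 and 3 with RBI2, and between 0 and 2, 0 and 1, and 0 and 1 with CX-5461. Between the compounds it lay between 0 and 1, 0 and 1, and 1 and 2, and between RBI2 labelled 10 and 120 min between 0 and 1. Counts over all genes moved more: without control replicate 1, 1287 genes were called in RBI2 labelled 120 min in place of 280, and without its replicate 1 it was 29. The cause was not tested. CASTOR1, DEPTOR and SESN3 had few reads.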
